A study of Mus musculus with 16 samples.

Results

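Liver gene expression in mice under overlap hypoxia was compared with that under intermittent hypoxia by RNA sequencing of 8 libraries, 4 from each exposure, taken by their treatment labels from a series of 16. All mice were wild type, of strain C57BL/6J and 12 weeks old. The other 8 libraries came from mice of that kind in room air or under sustained hypoxia, 4 each, and are given as reference levels. The series title describes overlap hypoxia as the combination of intermittent with sustained hypoxia, so the comparison asks what differs once sustained hypoxia is joined to intermittent hypoxia. Not given in the sources used here were the oxygen levels, the length of exposure, the sex of the mice and the time of day at collection. The protocol text speaks of retinas, while the tissue label is liver.

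Low oxygen is sensed in every cell through hypoxia-inducible factors (HIF), which are destroyed while oxygen is plentiful and switch on genes of glycolysis, vessel growth and mitochondrial turnover when it is not. Intermittent hypoxia repeats falls and recoveries of oxygen, as in sleep apnoea, and sustained hypoxia holds oxygen low, as in chronic lung disease. In the liver, hepatocytes make most plasma proteins and, in mice, a set of sex-biased genes whose expression follows the pattern of growth hormone release through the factor STAT5. Sinusoidal endothelial cells line the blood channels between the plates of hepatocytes and clear waste from plasma.

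Expression of 14553 genes passed the filter on low counts, out of 55487 genes in the deposited table. Expression is given below as CPM, counts scaled to library size by edgeR's TMM method, and the 4 values of a group stand in the order of replicates 1 to 4. Fold changes are log2 values, overlap minus intermittent, from edgeR's quasi-likelihood test with their standard error (SE), and genes with a Benjamini-Hochberg adjusted p under 0.05 were called.

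Markers of hepatocytes led every library, with summed levels of 77099.2 to 92407.4 CPM under overlap and 60054.5 to 85481.3 CPM under intermittent hypoxia. Summed photoreceptor markers stayed between 2.97 and 10.8 CPM in these 8 libraries, and Rcvrn, the retinal protein recoverin, was at 0 in all 16. Library totals ran from 10940275 to 61737508 counts under overlap and from 31747011 to 54613020 under intermittent hypoxia. Ribosomal RNA took 9.59 ± 5.82% (SD, n = 4) of counts under overlap against 25.2 ± 7.0% under intermittent hypoxia, and the libraries of each group did not overlap (exact two-sided permutation p = 0.0286, the smallest that 4 against 4 libraries can give, adjusted p = 0.0857 over 6 measures). Messenger RNA encoded by mitochondrial DNA took 3.79 ± 1.99% against 6.73 ± 1.71% (exact permutation p = 0.0571, adjusted p = 0.114), and major urinary proteins took 15.3 ± 3.73% against 5.96 ± 3.23% (exact permutation p = 0.0286, adjusted p = 0.0857). Total counts and the number of genes detected gave exact permutation p of 0.829 and 0.886. In room air these shares were 5.22 ± 3.71% for ribosomal RNA, 1.56 ± 0.498% for mitochondrial messages and 20.1 ± 4.45% for major urinary proteins. The part of these shares in the gene results below was not tested, and they enter only as a covariate in some fits. Since the ribosomal RNA shares of the compared groups did not overlap, such a fit cannot fully tell share from exposure.

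**Figure D1:**
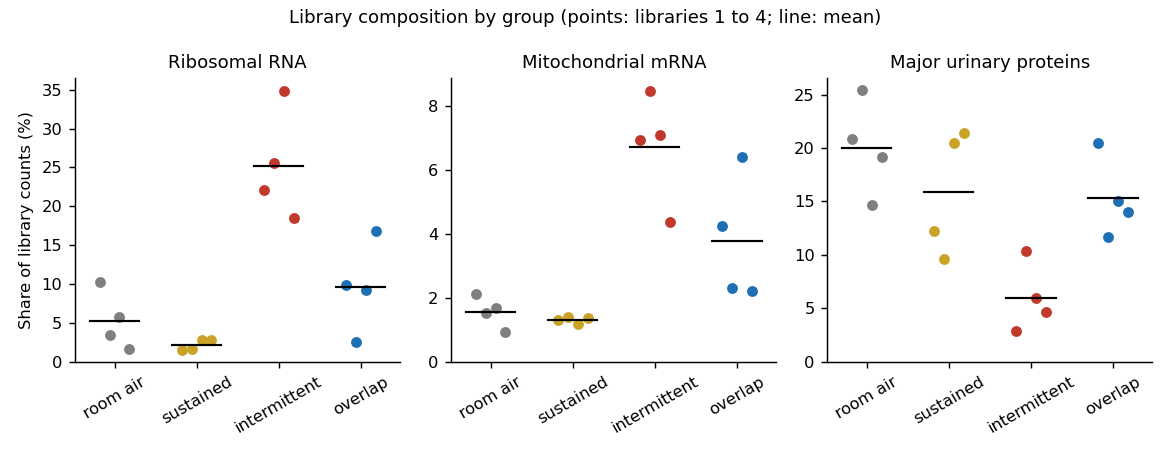
Share of each library's counts (in %) in ribosomal RNA, mitochondrially encoded messages and major urinary proteins, with 1 point per library and a line at the mean of each group of 4. The ribosomal RNA share lies between 18.5% and 34.8% under intermittent and between 2.53% and 16.8% under overlap hypoxia.

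Livers under overlap hypoxia held relatively more RNA for a set of male-biased secretory and transport genes and for parts of the protein-handling machinery than livers under intermittent hypoxia. They held relatively less RNA for some of the measured female-biased genes, sinusoidal endothelial genes, metallothioneins, splicing factors and chromatin regulators, and for the clock genes Per1, Per2 and Tef. In all, 895 genes were called, which is 6.15% of those tested, with 466 higher (3.20%) and 429 lower (2.95%) under overlap hypoxia. The counts of called genes given for each list below are to be read against these shares. At 2-fold or more, 49 were higher and 213 lower, and the median log2 fold change over all genes tested was -0.004. The 4 overlap values lay wholly above or wholly below the 4 intermittent values in 1629 genes, 11.2% of those tested, and in 712 of the 895 called. The overlap mean lay between those of room air and intermittent hypoxia in 686 of the 895 (76.6%, against 61.2% of all genes tested). Room air lay between the other means in 200 (22.3%, against 20.6%). Calling picks genes whose overlap and intermittent levels lie apart, so these shares are descriptions. Upper-quartile scaling in place of TMM gave 769 calls, split as 312 higher and 457 lower.

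How many genes passed depended on the libraries that entered. The count was 16 without overlap replicate 4, 171 without intermittent replicate 2, 217 without intermittent replicate 3, 451 without overlap replicate 2 and 1406 without intermittent replicate 4. With the 8 compared libraries alone, edgeR called 0 genes (2743 at an unadjusted p under 0.05, lowest adjusted p = 0.0541), DESeq2 called 787 and limma-voom 175. With each library's ribosomal RNA share as a covariate 4 genes were called (1187 at an unadjusted p under 0.05), and with the mitochondrial share 0 were called (1139 at an unadjusted p under 0.05). The 5 named genes that stayed called without overlap replicate 4 were Slco1a1, F11, Abcg5, Cyp2j9 and Lrit2. Biological variation, as the coefficient over 14553 genes, was 0.346 within intermittent and 0.300 within overlap hypoxia, against 0.228 in room air and 0.232 under sustained hypoxia.

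**Figure D2:**
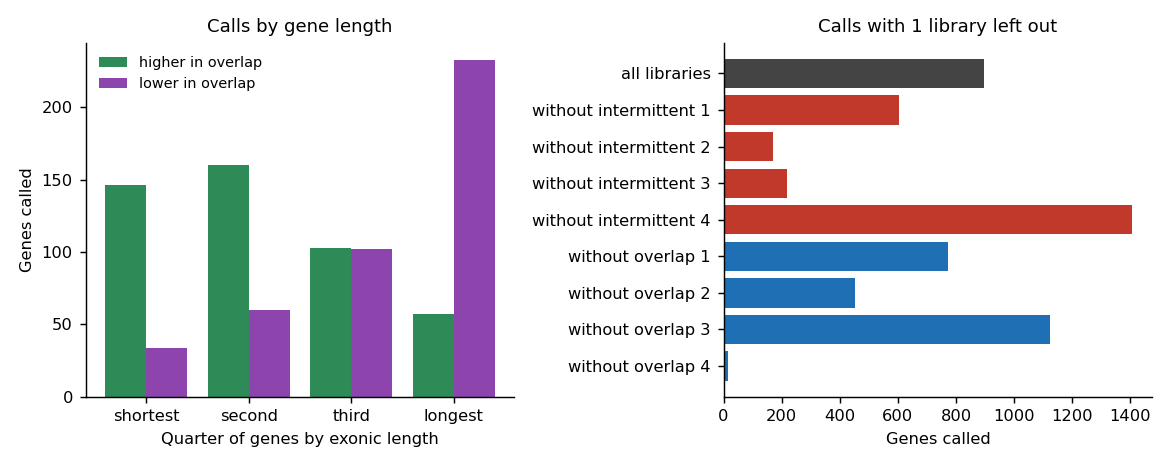
Left, genes called higher or lower under overlap hypoxia in 4 equal classes of genes by exonic length; right, genes called with all libraries and with 1 library left out, coloured by its group. Calls on the lower side rise from 34 among the shortest to 233 among the longest genes, and the count falls from 895 to 16 without overlap replicate 4.

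Male-biased liver genes that passed were all higher under overlap hypoxia: of 30 measured, 7 rose, 0 fell and 23 did not pass, with a median log2 fold change of 0.92. Slco1a1, an uptake transporter for organic anions in the sinusoidal membrane of hepatocytes (chr6:141907282-141946962, minus strand, GRCm38), stood at 278.9, 185.4, 308.1 and 357.1 CPM under overlap and at 59.3, 139.0, 105.3 and 48.1 CPM under intermittent hypoxia. Its log2 fold change was 1.68 (SE 0.27, adjusted p = 0.00955), and it kept its call whichever single library was left out. All 4 overlap values were above all 4 intermittent values, and the room air mean was 301.2 ± 27.3 CPM. Nudt7, a peroxisomal enzyme that splits coenzyme A (chr8:114133557-114154739, plus strand), was at 835.9, 459.6, 365.7 and 798.4 CPM under overlap and 267.4, 258.4, 207.0 and 175.2 CPM under intermittent hypoxia. Its log2 fold change was 1.44 (SE 0.25, adjusted p = 0.00969), and room air lay higher still at 981.4 ± 112.8 CPM. Mup20, the male urinary pheromone darcin, reached 10503.4, 12592.7, 9561.2 and 16938.5 CPM under overlap and 5833.8, 4409.0, 5444.9 and 1573.7 CPM under intermittent hypoxia, a log2 fold change of 1.52 (SE 0.37, adjusted p = 0.0303). Intermittent replicate 4 was the lowest library for Mup20, and the call was lost without intermittent replicates 2 and 3 and overlap replicates 2 and 4. Mup3, another major urinary protein, was at 11949.4 ± 1329.7 against 6111.6 ± 2483.7 CPM, a log2 fold change of 0.97 (SE 0.25, adjusted p = 0.0321). C8b, the beta chain of complement component 8, was at 286.8 ± 109.1 against 143.9 ± 38.4 CPM, a log2 fold change of 1.0 (SE 0.26, adjusted p = 0.0327). Keg1 rose by a log2 fold change of 0.87. Selenbp2, a selenium-binding protein, had the largest rise of the 7 that passed, from 28 ± 16 to 375.5 ± 262.0 CPM (log2 fold change 3.75, SE 0.99, adjusted p = 0.0466). Shared sequence limits some of these: 50.5% of the 50-base words of Mup20 and 43.9% of those of Selenbp2 also occur in transcripts of another gene. The call of Selenbp2 was lost without any 1 of 12 of the 16 libraries. Of the 7, only Slco1a1 was called without overlap replicate 4.

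**Figure D3:**
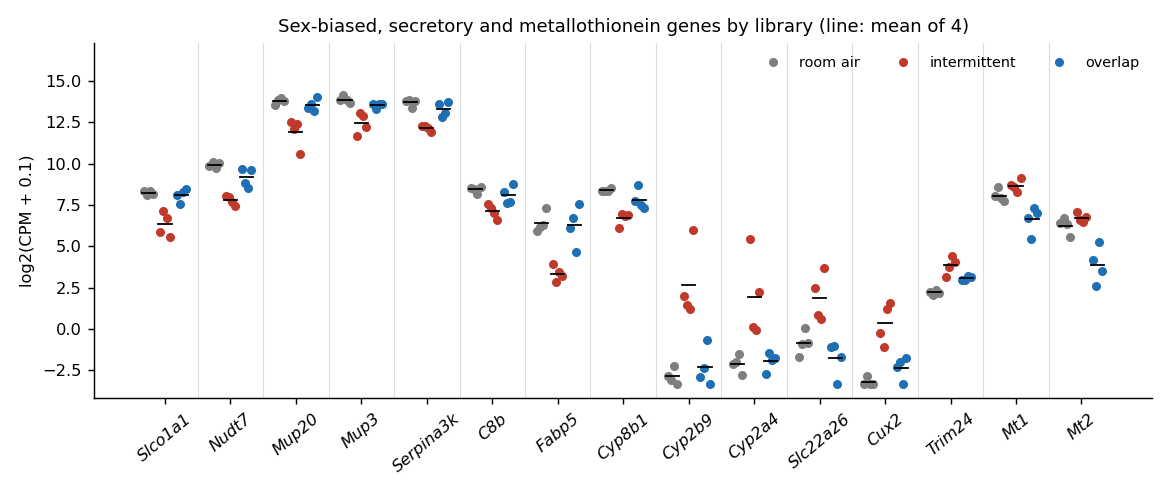
Levels of 15 named genes in each library of the room air, intermittent and overlap groups, as log2(CPM + 0.1) on the vertical axis, with a line at the mean of the 4 log values. From Slco1a1 to Cyp8b1 every overlap point lies above every intermittent point, and for Cyp2b9, Cyp2a4, Slc22a26, Cux2, Mt1 and Mt2 every overlap point lies below. All 15 were picked among called genes, and the groups were apart in 11.2% of all genes tested.

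Female-biased liver genes that passed were all lower: of 22 measured, 6 fell, 0 rose and 16 did not pass, with a median log2 fold change of -1.69. Against room air, the list's median log2 difference was 2.22 under intermittent and 0.47 under overlap hypoxia. Cux2, a repressor of male-biased genes that female livers express, was at 0.1, 0.146, 0 and 0.191 CPM under overlap and 0.738, 0.373, 2.18 and 2.88 CPM under intermittent hypoxia, and at 0.00941 ± 0.0188 CPM in room air. Every intermittent library was above every overlap library, and the log2 fold change was -3.61 (SE 0.75, adjusted p = 0.0167). Cyp2b9, a cytochrome P450 of steroid and drug metabolism, was at 0.0334, 0.0973, 0.524 and 0 CPM under overlap and 3.93, 2.58, 2.18 and 63.6 CPM under intermittent hypoxia. Its group sums were 12 and 3984 counts, of which intermittent replicate 4 held the most, and the log2 fold change was -7.72 (SE 1.56, adjusted p = 0.0222), or -4.81 without that library. Cyp2a4, a steroid hydroxylase, was at 0.0501, 0.268, 0.175 and 0.191 CPM under overlap and 43.4, 0.995, 0.873 and 4.72 CPM under intermittent hypoxia. Here intermittent replicate 1 was highest, and the log2 fold change of -6.26 (SE 1.39, adjusted p = 0.0273) became -3.73 without it. Of the 50-base words of Cyp2a4, 38% occur in another gene as well. Room air means of Cyp2b9 and Cyp2a4, at 0.0435 ± 0.0496 and 0.143 ± 0.0815 CPM, were nearer to overlap hypoxia. Slc22a26, of the organic anion transporter family, was at 0.243 ± 0.18 against 5.3 ± 5.25 CPM, a log2 fold change of -4.23 (SE 0.9, adjusted p = 0.0223). Trim24, a coregulator of nuclear receptors, was at 8.34 ± 0.634 against 15.1 ± 5.52 CPM and fell by 0.85 (SE 0.2, adjusted p = 0.0226), with some overlap between the libraries of both groups. Prlr, the prolactin receptor, fell by 0.99 on the log2 scale. Of the 22 genes, 0 were called without overlap replicate 4.

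Major urinary proteins are lipocalins that carry pheromones into urine and are among the most abundant messages of male mouse liver. All 22 measured had a positive log2 fold change, with a median of 1.22, yet only Mup20 and Mup3 passed the test, and the members share much of their sequence. Mup21 stood at 197.2 ± 40.1 against 62.2 ± 30.7 CPM (adjusted p = 0.0564) and Mup9, with 79.1% of its words shared, at 2614.1 ± 1289.4 against 468.1 ± 332.5 CPM (adjusted p = 0.0578). Genes of the growth hormone receptor, STAT5 and IGF1 axis showed 2 of 17 lower, Cux2 and Stat3, and 0 higher, with a median of 0.01. Stat3, the factor downstream of interleukin 6, was at 23, 19.2, 19.7 and 23.8 CPM under overlap and 29, 32.8, 44.6 and 27.6 CPM under intermittent hypoxia, without overlap between groups, and its log2 fold change was -0.64 (SE 0.16, adjusted p = 0.0273). The receptor itself, Ghr, had levels of 276.9 ± 38.4 and 231.3 ± 20.9 CPM (log2 fold change 0.26, SE 0.13, adjusted p = 0.218), and Stat5b had 16.3 ± 1.45 and 18.6 ± 0.508 CPM (log2 fold change -0.19, SE 0.12, adjusted p = 0.326).

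Sinusoidal endothelial markers were lower under overlap hypoxia, with 10 of 14 falling, 0 rising and a median log2 fold change of -0.82. Summed over the 14 genes, their level was 77.3 to 134.6 CPM under overlap, 178.6 to 192.8 CPM under intermittent hypoxia, 165.2 to 195.4 CPM in room air and 121.9 to 170.2 CPM under sustained hypoxia. The overlap libraries lay below those of intermittent hypoxia and room air, and their range overlapped that of sustained hypoxia. Bmp2, the ligand by which these cells raise hepcidin in hepatocytes, was at 2.55, 6.01, 5.24 and 3.78 CPM under overlap and 8.16, 10.4, 10 and 10.3 CPM under intermittent hypoxia. Its log2 fold change was -1.17 (SE 0.21, adjusted p = 0.0097), with no overlap between the groups. Stab1, the scavenger receptor stabilin 1, was at 9.58, 11.9, 16.5 and 11.1 CPM under overlap and 24.2, 21.9, 20.9 and 20.5 CPM under intermittent hypoxia, a log2 fold change of -0.85 (SE 0.17, adjusted p = 0.0162). Fcgr2b, the inhibitory Fc receptor, was at 11.5 ± 3.72 against 23.2 ± 1.35 CPM (log2 fold change -1.02, SE 0.21, adjusted p = 0.0173). For both receptors the lowest intermittent library was above the highest overlap library. Room air means of Bmp2 and Fcgr2b, at 10 ± 0.929 and 20.2 ± 2.89 CPM, were nearer to intermittent hypoxia. That of Stab1, at 12.5 ± 1.23 CPM, was near the overlap mean of 12.3 CPM. The others that fell were Cdh5 (VE-cadherin, log2 fold change -1.05), Stab2 (-0.95), F8 (coagulation factor VIII, -0.90), Kdr (-0.86), Mrc1 (the mannose receptor, -0.78), Oit3 (-0.72) and Clec4g (-0.68). Whole liver RNA was measured, so fewer endothelial cells and less RNA per endothelial cell cannot be told apart. The median exonic length of the 14 was 5470 bases, against 4032 over the genes tested. With the ribosomal RNA share as a covariate the only gene called lower was Cyp2b9, so the endothelial markers lost their calls. Without overlap replicate 4, 0 of the 14 were called, with a median of -0.75, and without intermittent replicate 3 and overlap replicate 3 together 7 were called.

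Of 17 genes of vessel growth 6 fell, 0 rose and 11 did not pass, with a median of -0.68, and 2 of the 17, Kdr and Pecam1, are also sinusoidal markers. Kdr, the main receptor for VEGF, was at 5.01, 8.47, 10.1 and 6.83 CPM under overlap and 15.7, 11.4, 13.1 and 14.2 CPM under intermittent hypoxia, a log2 fold change of -0.86 (SE 0.19, adjusted p = 0.0198). Tek, the angiopoietin receptor Tie2, was at 2.19, 2.92, 2.53 and 2.53 CPM under overlap and 5.41, 4.6, 6.07 and 4.34 CPM under intermittent hypoxia (log2 fold change -1.0, SE 0.19, adjusted p = 0.0137). Neither receptor overlapped between the groups. Flt4, the receptor of lymphatic VEGF, was at 2.09 ± 0.495 against 5.07 ± 1.23 CPM (log2 fold change -1.26, SE 0.31, adjusted p = 0.0264). Room air means of Kdr, Tek and Flt4 were 13.5 ± 1.94, 3.95 ± 0.646 and 1.8 ± 0.775 CPM. That of Flt4 was nearer to overlap hypoxia and that of Kdr nearer to intermittent hypoxia. Vegfa, the ligand, which hepatocytes make, was at 42.9, 29.9, 51.9 and 40.5 CPM under overlap and 60.9, 74.3, 76.7 and 59.9 CPM under intermittent hypoxia. Its log2 fold change was -0.72 (SE 0.17, adjusted p = 0.023), and both groups were above the room air mean of 22.4 ± 4.48 CPM. Eng, a co-receptor of TGF beta, had a log2 fold change of -0.68 and Notch1 one of -1.32. For genes of this list that endothelial cells express, cell number and RNA per cell cannot be told apart here either. The call of Vegfa was lost without intermittent replicates 2 and 3 and overlap replicates 2 and 4, and 0 of the 17 were called without overlap replicate 4.

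Other cell types of the liver gave fewer calls, though most leukocyte and stellate markers also had negative log2 fold changes. These were 13 of 14 Kupffer cell markers and 12 of 14 stellate cell and fibroblast markers. So were 6 of 8 T and NK cell, 3 of 4 B cell, 3 of 4 neutrophil and 4 of 5 monocyte markers, with 0 calls in each. Positive were 6 of 8 cholangiocyte, 3 of 5 erythroid, 2 of 2 adipocyte and 8 of 10 hepatocyte markers. Of 14 Kupffer cell markers 0 passed in edgeR, DESeq2 or limma-voom (3 had an unadjusted p under 0.05 in edgeR), with a median of -0.42 and a summed level of 94.1 to 116.5 CPM under overlap and 86.6 to 164.6 CPM under intermittent hypoxia, against 188.0 to 291.2 CPM in room air. Csf1r, the receptor that macrophages need to survive, was at 5.04 ± 0.807 against 7.71 ± 1.54 CPM (log2 fold change -0.59, SE 0.21, adjusted p = 0.0846), and Clec4f, a lectin of Kupffer cells, at 14.1 ± 3.18 against 16.6 ± 6.43 CPM (log2 fold change -0.24, SE 0.29, adjusted p = 0.639). Of 14 stellate cell and fibroblast markers 1 fell, with a median of -0.40 and summed levels of 124.1 to 275.1 against 256.8 to 311.9 CPM. That gene was Reln, the secreted protein reelin, at 6.04, 12.3, 10.1 and 10.3 CPM under overlap and 15.5, 17.9, 18.7 and 14.4 CPM under intermittent hypoxia (log2 fold change -0.78, SE 0.21, adjusted p = 0.0338), and its call was lost without intermittent replicates 1, 2 and 3 and overlap replicates 1 and 4. Col3a1, a fibrillar collagen, was at 21 ± 6.28 against 12.5 ± 5.98 CPM and did not pass (adjusted p = 0.15). Markers of hepatocytes gave 0 calls of 10 with each of these tools, 2 unadjusted p under 0.05 in edgeR and a median of 0.11.

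**Figure D4:**
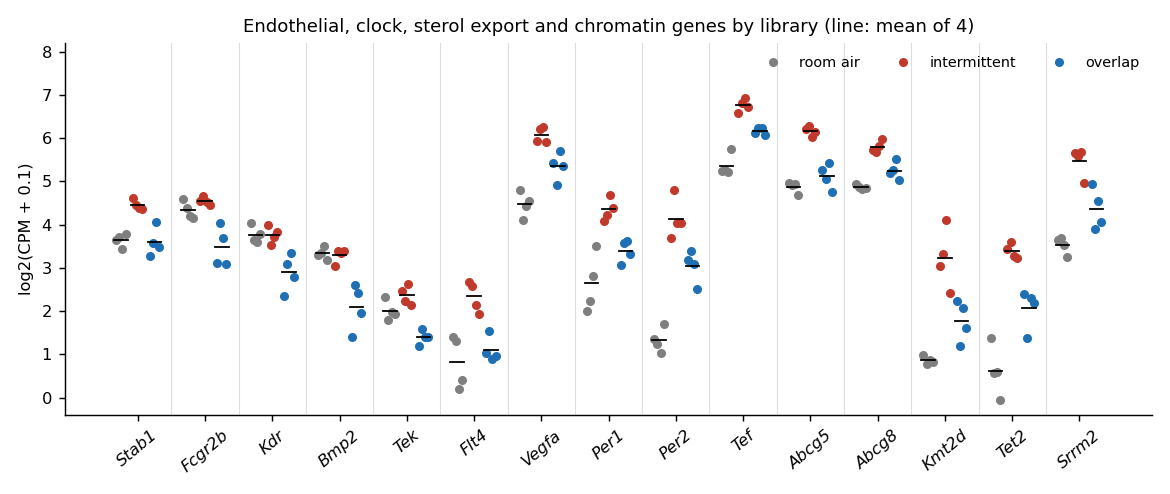
Levels of 15 named genes in each library of the room air, intermittent and overlap groups, as log2(CPM + 0.1), with a line at the mean of the 4 log values. The 15 genes were picked among those called lower with groups apart, so every overlap point lies below every intermittent point. Among all genes tested, the groups were apart in either direction in 11.2%.

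Metallothioneins, small proteins that bind zinc and copper, were lower under overlap hypoxia, while the zinc transporters measured with them did not pass. Both genes lie side by side on chromosome 8 and answer to metals through the factor MTF1, which binds the metal response element. Their RefSeq windows of 250 bases before the start (GRCm38.p6, plus strand) are shown because both genes moved together, with capitals at every match to TGCACNC or TGCGCNC on either strand. This motif was added after the values were seen.
Mt1, chr8:94178839-94179088: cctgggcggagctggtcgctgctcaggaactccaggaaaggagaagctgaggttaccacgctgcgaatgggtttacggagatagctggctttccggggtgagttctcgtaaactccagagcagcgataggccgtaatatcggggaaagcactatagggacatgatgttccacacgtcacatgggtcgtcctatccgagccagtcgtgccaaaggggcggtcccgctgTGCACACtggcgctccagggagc
Mt2, chr8:94172368-94172617: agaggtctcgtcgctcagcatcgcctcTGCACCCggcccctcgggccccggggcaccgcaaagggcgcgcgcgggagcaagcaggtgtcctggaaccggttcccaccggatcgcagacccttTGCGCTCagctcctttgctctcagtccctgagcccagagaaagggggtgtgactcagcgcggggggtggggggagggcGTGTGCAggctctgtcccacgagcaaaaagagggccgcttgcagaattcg
The window of Mt1 holds 1 match and that of Mt2 holds 3. Among 32851 RefSeq windows of this length, 21.4% hold at least 1 match and 1.26% hold at least 3. A match is a stretch of letters and not a measured binding site.

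Mt1 was at 107.3, 43.5, 163.3 and 131.5 CPM under overlap and 411.9, 380.7, 314.6 and 573.7 CPM under intermittent hypoxia. Mt2 was at 18.1, 5.89, 39.1 and 11.3 CPM under overlap and 135.2, 98.4, 90.2 and 108.5 CPM under intermittent hypoxia. Neither gene overlapped between the groups, and overlap replicate 2 was the lowest library for both. The log2 fold change was -1.92 (SE 0.48, adjusted p = 0.0364) for Mt1 and -2.57 (SE 0.61, adjusted p = 0.0319) for Mt2. Room air lay at 275.9 ± 71.2 and 80 ± 24.4 CPM, and sustained hypoxia at 109.7 ± 70.4 and 20.1 ± 11.2 CPM, the latter near the overlap means. Of 10 genes for metallothioneins and zinc transport, these 2 fell and 0 rose, with a median of -0.23. Exons of Mt2 overlap an antisense gene over 73.5% of their length, and the strand setting of the counts is not given in the sources used here. The call of Mt1 was lost without intermittent replicates 1, 2, 3 and 4, overlap replicates 1, 2 and 4, room air replicate 3 and sustained replicate 1, and that of Mt2 without intermittent replicates 1, 2 and 3 and overlap replicates 1, 2 and 4.

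Of 19 genes of the circadian clock and its outputs 3 fell, Per1, Per2 and Tef, and 0 rose, with a median of -0.17. PER proteins repress the CLOCK and BMAL1 pair, which binds the E-box CACGTG, and TEF is an output factor that binds the D-box TTATGNAA. Windows of 250 bases before RefSeq starts of Per1 and Tef (GRCm38.p6, plus strand) are shown with E-box and D-box matches on either strand in capitals. Both genes were picked because they fell, while 16 genes of the list did not pass. For Per2 no window was available.
Per1, chr11:69098699-69098948: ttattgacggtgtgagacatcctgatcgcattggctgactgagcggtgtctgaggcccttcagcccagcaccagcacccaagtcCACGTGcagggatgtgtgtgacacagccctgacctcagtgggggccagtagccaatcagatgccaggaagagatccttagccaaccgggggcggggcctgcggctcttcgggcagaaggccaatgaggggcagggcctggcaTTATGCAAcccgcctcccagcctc
Tef, chr15:81811164-81811413: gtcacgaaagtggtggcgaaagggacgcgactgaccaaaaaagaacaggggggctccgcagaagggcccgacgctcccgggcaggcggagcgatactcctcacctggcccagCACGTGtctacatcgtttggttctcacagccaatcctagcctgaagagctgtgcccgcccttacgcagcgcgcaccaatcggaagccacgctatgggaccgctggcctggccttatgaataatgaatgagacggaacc
Both windows hold 1 E-box, which 6.02% of all 32851 windows hold, and that of Per1 also holds 1 D-box, which 3.07% hold. A further window of each gene, before another start, is not shown: that of Tef holds 1 E-box and no D-box, and that of Per1 holds neither.

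Per2 was at 9.02, 10.3, 8.39 and 5.64 CPM under overlap and 12.8, 27.7, 16.3 and 16.3 CPM under intermittent hypoxia, a log2 fold change of -1.13 (SE 0.23, adjusted p = 0.0162). Per1 was at 8.3, 11.9, 12.1 and 9.87 CPM under overlap and 16.8, 18.7, 25.8 and 20.9 CPM under intermittent hypoxia (log2 fold change -0.97, SE 0.28, adjusted p = 0.0495). The 2 groups did not overlap for either gene, and room air was lower still, at 2.45 ± 0.51 and 6.67 ± 3.32 CPM. Tef was at 71.7 ± 3.88 against 108.5 ± 11.5 CPM (log2 fold change -0.6, SE 0.15, adjusted p = 0.029), with room air at 41.4 ± 7.92 CPM. Per3 had 9.71 ± 2.06 and 14.8 ± 3.61 CPM and did not pass (adjusted p = 0.174), and Dbp, the output factor most often used as a phase marker, had 96.7 ± 16.6 and 92.6 ± 15.5 CPM (log2 fold change 0.06, SE 0.16, adjusted p = 0.846). Other clock repressors did not pass either. Cry1, Bhlhe41 and Nfil3 had log2 fold changes of 0.42, 0.43 and 0.03, and Cry2, Nr1d1, Nr1d2 and Bhlhe40 had -0.26, -0.31, -0.29 and -0.1. The call of Per1 was lost without intermittent replicates 1, 2, 3 and 4, overlap replicates 1, 2, 3 and 4, room air replicates 2 and 3 and sustained replicates 1, 2 and 3, and 0 of the 19 genes were called without overlap replicate 4.

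Oxygen sensing genes themselves showed 1 of 11 higher and 0 lower, with a median of -0.01. That gene was Cul2, the scaffold of the VHL ubiquitin ligase that marks HIF for destruction, at 24.1, 15.1, 14.3 and 28.8 CPM under overlap and 12.3, 11.8, 11.7 and 15.6 CPM under intermittent hypoxia (log2 fold change 0.68, SE 0.2, adjusted p = 0.0473). Its groups overlapped, the room air mean was 30.7 ± 1.37 CPM, and the call was lost without any 1 of 11 of the 16 libraries and with DESeq2's size factors or upper-quartile scaling in edgeR. Egln1, the prolyl hydroxylase that acts as the oxygen sensor, was at 9.47 ± 1.34 against 11.7 ± 1.3 CPM (log2 fold change -0.29, SE 0.16, adjusted p = 0.247). Of 30 HIF target genes 2 rose, 1 fell and 27 did not pass, with a median of 0.15. The gene that fell was Vegfa, and those that rose were Pgk1, the glycolytic phosphoglycerate kinase, and Bnip3l, a receptor that tags mitochondria for removal. Pgk1 was at 195.6 ± 28.3 against 129.0 ± 32.8 CPM (log2 fold change 0.6, SE 0.18, adjusted p = 0.0493) and Bnip3l at 61.4 ± 6.88 against 42.9 ± 5.91 CPM (log2 fold change 0.52, SE 0.14, adjusted p = 0.0377). Room air levels of both were higher than either, at 298.1 ± 44.6 and 80.3 ± 12.7 CPM, and 53.9% of the words of Pgk1 are shared with another gene. The call of Pgk1, whose groups overlapped, was lost without any 1 of 12 of the 16 libraries and under both of those scalings, and that of Bnip3l without intermittent replicates 1, 2 and 3 and overlap replicate 4, so that 0 of the 30 were called without overlap replicate 4. Hmox1, a HIF and NRF2 target that breaks down haem, had 5.89 ± 2.03 and 7.13 ± 1.65 CPM (adjusted p = 0.497).

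Splicing and chromatin genes were lower under overlap hypoxia where they passed. Of 32 SR splicing factors and CLK kinases 9 fell, 0 rose and 23 did not pass, with a median of -0.52. Against room air, the list's median log2 difference was 0.75 under intermittent and 0.29 under overlap hypoxia. Srrm2, a large scaffold of nuclear speckles, was at 30.6, 14.7, 23.3 and 16.5 CPM under overlap and 50.4, 48.1, 51 and 31 CPM under intermittent hypoxia, a log2 fold change of -1.08 (SE 0.21, adjusted p = 0.0137). Clk4, a kinase that phosphorylates SR proteins, was at 19.5 ± 3.8 against 31.5 ± 3.42 CPM (log2 fold change -0.68, SE 0.15, adjusted p = 0.0198). Srsf2 and Srrm1 were at 32.7 ± 1.89 against 51.8 ± 10.3 CPM and 9.27 ± 0.77 against 14.3 ± 0.85 CPM, with log2 fold changes of -0.66 (SE 0.14, adjusted p = 0.0171) and -0.62 (SE 0.13, adjusted p = 0.0167). The groups did not overlap for any of these 4. Room air means of Srrm2, Clk4, Srsf2 and Srrm1 were 11.5, 14.5, 29.4 and 9.24 CPM. The remaining ones that fell were Luc7l2 (log2 fold change -0.86), Srpk2 (-0.67), Clk1 (-0.60), Srsf11 (-0.60) and Rbm5 (-0.51).

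Of 33 histone methyltransferases, demethylases and related enzymes 9 fell, 0 rose and 24 did not pass, with a median of -0.54. Against room air, the list's median log2 difference was 0.86 under intermittent and 0.37 under overlap hypoxia. Kmt2d, which methylates histone H3 lysine 4 at enhancers, was at 4.62, 2.17, 4.11 and 2.94 CPM under overlap and 8.16, 9.95, 17.2 and 5.27 CPM under intermittent hypoxia. Its log2 fold change was -1.55 (SE 0.3, adjusted p = 0.0137), and room air stood at 1.72 ± 0.123 CPM. Tet2, which oxidises methylated cytosine in DNA, was at 5.18, 2.48, 4.81 and 4.47 CPM under overlap and 10.8, 12, 9.56 and 9.25 CPM under intermittent hypoxia (log2 fold change -1.3, SE 0.26, adjusted p = 0.0162). For both genes every overlap library was below every intermittent library and above the room air mean. Kmt2b and Setd5 were at 4.38 ± 0.784 against 8.55 ± 1.74 CPM and 7.56 ± 1.78 against 13.8 ± 1.74 CPM, with log2 fold changes of -0.97 (SE 0.22, adjusted p = 0.0204) and -0.86 (SE 0.17, adjusted p = 0.0137). The others that fell were Kmt2a (log2 fold change -1.28), Kmt2e (-1.22), Kdm6b (-1.09), Setd1a (-1.04) and Jmjd1c (-0.78). Without overlap replicate 4 there were 0 calls in this list and 0 in the splicing list, with medians of -0.50 and -0.49.

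Nuclear RNA and its surveillance showed both directions. Among 14 nuclear-retained RNAs 2 fell, 1 rose and the median was -1.02. Mlxipl, the glucose-responsive factor ChREBP whose message hepatocytes hold in the nucleus, was at 103.1, 41.9, 73 and 66.1 CPM under overlap and 127.9, 168.1, 165.6 and 107.2 CPM under intermittent hypoxia (log2 fold change -1.0, SE 0.26, adjusted p = 0.0321). Nlrp6, an inflammasome sensor, was at 41 ± 16.5 against 84.4 ± 18.4 CPM (log2 fold change -1.05, SE 0.26, adjusted p = 0.029), and Nlrp12 rose to 50.8 ± 15.8 from 30.9 ± 5.65 CPM (log2 fold change 0.72, SE 0.2, adjusted p = 0.0461). The groups of Nlrp12 overlapped. Its call was lost without intermittent replicates 1, 2 and 3, overlap replicates 1, 3 and 4, room air replicates 2 and 3 and sustained replicates 1 and 2. Room air means of Mlxipl, Nlrp6 and Nlrp12 were 34.4 ± 11.3, 13.8 ± 3.74 and 62.2 ± 9.36 CPM. Malat1, a long noncoding RNA of nuclear speckles, had 656.1, 38.7, 88.6 and 204.0 CPM under overlap and 192.5, 1170.2, 282.6 and 599.4 CPM under intermittent hypoxia, with a spread that left it unpassed (log2 fold change -1.18, SE 0.93, adjusted p = 0.455). Of 18 nonsense-mediated decay factors, Smg1 and Smg6 fell (log2 fold changes -0.81 (SE 0.17, adjusted p = 0.0162) and -0.69 (SE 0.19, adjusted p = 0.0338)). Gspt1, which ends translation with eRF1, and Eif4a3, of the exon junction complex, rose (log2 fold changes 0.81 (SE 0.17, adjusted p = 0.018) and 0.5 (SE 0.12, adjusted p = 0.0231)).

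Gene length moved with these results. Over 14540 genes with a length, Spearman's rho between exonic length and log2 fold change was -0.194, a value across genes, which are not independent replicates. The median log2 fold change was 0.11 in the shortest of 4 equal length classes (up to 2408 bases), 0.07 and -0.02 in the middle classes and -0.17 in the longest (6415 bases and more). In the shortest class 146 genes rose and 34 fell, and in the longest 57 rose and 233 fell. With an offset for length and GC content the splicing list still gave 9 lower and 0 higher, and the chromatin list 9 lower and 1 higher, with medians of -0.40 and -0.30. The share of ribosomal RNA also moved with the groups, and with it as a covariate 0 genes of either list were called, with medians of -0.21 and -0.11.

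Genes for folding and removing proteins were higher under overlap than under intermittent hypoxia where they passed. Against room air, the median log2 difference of the endoplasmic reticulum list was -0.29 under overlap and -0.59 under intermittent hypoxia. That of the proteasome list was -0.31 and -0.58. In the endoplasmic reticulum list 3 of 26 rose and 0 fell, with a median of 0.35. Hspa5, the chaperone BiP, was at 433.4, 281.6, 373.6 and 454.9 CPM under overlap and 296.2, 213.1, 220.3 and 214.2 CPM under intermittent hypoxia (log2 fold change 0.71, SE 0.2, adjusted p = 0.0463), and its groups overlapped. The room air mean of Hspa5 was higher, at 520.6 ± 141.2 CPM. Its call was lost without intermittent replicates 2, 3 and 4, overlap replicates 1, 3 and 4, room air replicates 2 and 3 and sustained replicates 1 and 3. Eif2ak3, the stress kinase PERK, was at 4.96 ± 1.56 against 2.63 ± 0.672 CPM (log2 fold change 0.89, SE 0.25, adjusted p = 0.0424). Ppib, a prolyl isomerase of the secretory pathway, was at 312.3 ± 30.3 against 226.7 ± 12.4 CPM (log2 fold change 0.46, SE 0.12, adjusted p = 0.0283), and Dnajb9, a co-chaperone of BiP, at 22.3 ± 5.95 against 13 ± 1.75 CPM, did not pass (adjusted p = 0.0691). Eif2ak3 and Ppib were without overlap between groups, and the call of Eif2ak3 was lost without intermittent replicates 1, 2 and 3, overlap replicates 1, 3 and 4, room air replicates 2 and 3 and sustained replicate 1. Room air means were 3.27 CPM for Eif2ak3, between those of the groups, and 349.7 CPM for Ppib, above both. Of 26 proteasome subunits 4 rose and 0 fell, with a median of 0.25. Psma6, of the core ring, was at 138.9, 141.2, 132.9 and 170.5 CPM under overlap and 77.5, 80.1, 79.9 and 126.1 CPM under intermittent hypoxia (log2 fold change 0.68, SE 0.16, adjusted p = 0.0223). The ATPases of the cap, Psmc1, Psmc2 and Psmc3, rose by log2 fold changes of 0.45, 0.47 and 0.43 (adjusted p = 0.0436, 0.0496 and 0.0488). The groups overlapped for each of these ATPases. Each call was lost without intermittent replicates 1, 2 and 3, overlap replicates 1, 2 and 4 and several room air and sustained libraries. Room air means of Psma6, Psmc1, Psmc2 and Psmc3, at 210.8, 81.4, 99.5 and 156.6 CPM, were above those of both groups. With upper-quartile scaling 1 proteasome gene and 1 endoplasmic reticulum gene were called. Of 37 cytosolic ribosomal proteins 0 passed, although 33 had a positive log2 fold change and the median was 0.28, and Rplp0 stood at 492.5 ± 57.1 against 344.4 ± 69.5 CPM (adjusted p = 0.0731). At an unadjusted p under 0.05 there were 16 of them, and DESeq2 called 3 and limma-voom 0.

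Autophagy and lysosome genes gave 5 of 26 higher and 0 lower, with a median of 0.25. Against room air, the list's median log2 difference was -0.30 under overlap and -0.53 under intermittent hypoxia. Room air means of Gabarapl2 and Gabarapl1, at 107.0 and 301.2 CPM, were above those of both groups. That of Wipi1, at 3.67 CPM, lay between them. Wipi1, which binds the membrane of the forming autophagosome, was at 7.2, 5.91, 6.64 and 5.4 CPM under overlap and 2.9, 3.64, 3.14 and 3.31 CPM under intermittent hypoxia, a log2 fold change of 0.95 (SE 0.2, adjusted p = 0.0167). Gabarapl2 and Gabarapl1, of the family that coats autophagosomes, were at 66.6 ± 10.9 against 41.2 ± 4.69 CPM and 261.3 ± 24.7 against 180.4 ± 35.2 CPM. Their log2 fold changes were 0.69 (SE 0.14, adjusted p = 0.0162) and 0.53 (SE 0.14, adjusted p = 0.0304), and no library of 1 group reached into the other for any of the 3. Bnip3l and Atg5, of the conjugation machinery (log2 fold change 0.43), were the other two. Without overlap replicate 4, 0 genes of the autophagy, proteasome and endoplasmic reticulum lists were called.

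Of 36 respiratory chain subunits encoded in the nucleus 5 rose and 0 fell, with a median of 0.24, while the 13 messages encoded in mitochondria had negative log2 fold changes throughout, a median of -1.09, and 0 calls, and no test compared both sets. With 1 library left out the nuclear subunits gave 0 to 10 calls, with 0 without intermittent replicates 2 or 3 or overlap replicate 4, 1 without intermittent replicate 1 or overlap replicate 2, and 10 without intermittent replicate 4. Uqcrc2, of complex III, was at 233.3, 268.1, 188.0 and 276.0 CPM under overlap and 145.0, 140.3, 162.4 and 184.6 CPM under intermittent hypoxia (log2 fold change 0.61, SE 0.14, adjusted p = 0.0223). Ndufv1 of complex I, Sdha of complex II and Atp5b of the ATP synthase had log2 fold changes of 0.56 (SE 0.15, adjusted p = 0.0306), 0.48 (SE 0.13, adjusted p = 0.0327) and 0.58 (SE 0.17, adjusted p = 0.045), and Cyc1 one of 0.49. The groups of Ndufv1 and Atp5b overlapped, and their calls were lost without any 1 of 5 and of 10 of the 16 libraries. Room air means of Uqcrc2, Ndufv1, Sdha and Atp5b, at 310.8, 176.7, 198.6 and 914.4 CPM, were above those of both groups. On the mitochondrial side mt-Cytb, of complex III, was at 5597.8, 3660.2, 8628.1 and 2843.2 CPM under overlap and 9303.0, 14789.1, 14019.6 and 6162.1 CPM under intermittent hypoxia (log2 fold change -1.09, SE 0.39, adjusted p = 0.104). Its groups overlapped, and room air stood at 2655.1 ± 1226.5 CPM. mt-Nd4 and mt-Co1 were at 2582.9 ± 1297.1 against 6257.5 ± 2843.6 CPM and 19350.6 ± 11178.6 against 40016.1 ± 15685.9 CPM (adjusted p = 0.0931 and 0.111), and share 62.2% and 51.1% of their words with another gene. Of the 13, 9 had an unadjusted p under 0.05 in edgeR, and DESeq2 called 4 and limma-voom 0. With the ribosomal RNA share as covariate their median was -0.01.

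**Figure D5:**
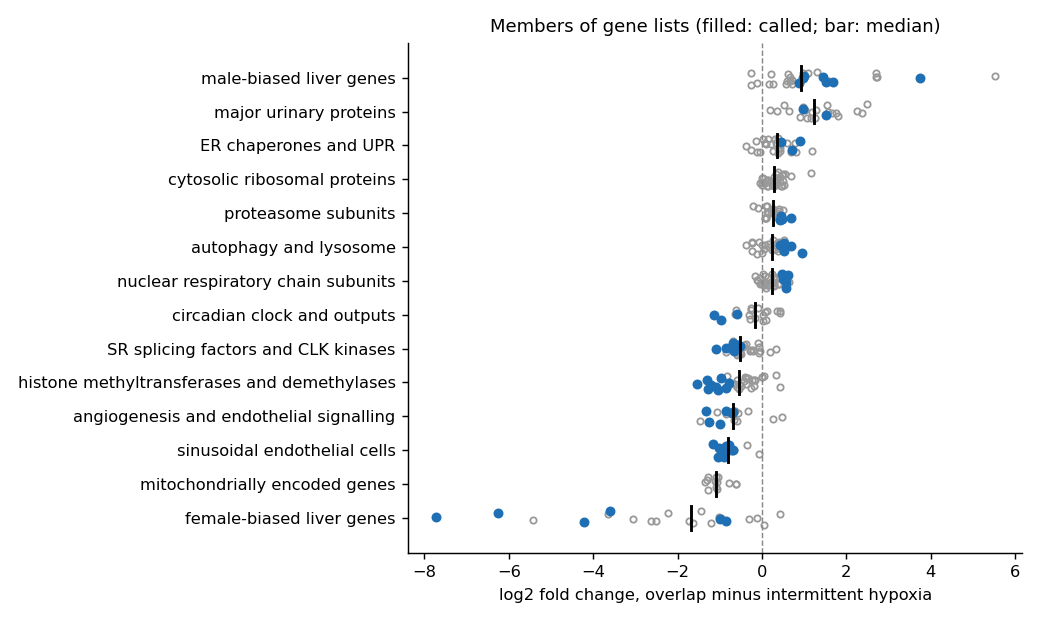
Log2 fold change (overlap minus intermittent hypoxia) of the tested members of 14 gene lists, 1 point per gene, filled where called, with a bar at the median. Most male-biased genes and all major urinary proteins lie to the right of 0 (medians 0.92 and 1.22), and all endothelial and mitochondrial and most female-biased genes to the left (medians -0.82, -1.09 and -1.69).

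Glucose and insulin genes gave 1 gene in each direction per list. Ppargc1a, the coactivator of fasting metabolism, was at 2.35, 2.02, 2.45 and 2.25 CPM under overlap and 4.11, 3.42, 4.54 and 6.67 CPM under intermittent hypoxia (log2 fold change -1.06, SE 0.24, adjusted p = 0.0215). Pcx, pyruvate carboxylase, the entry step of gluconeogenesis, was at 256.9, 359.5, 268.3 and 304.0 CPM under overlap and 160.6, 179.0, 191.9 and 248.3 CPM under intermittent hypoxia (log2 fold change 0.61, SE 0.17, adjusted p = 0.0362). The groups were apart for both genes, in opposite directions. The other 13 of 15 genes of glucose production did not pass, among them Pck1 at 1375.3 ± 359.0 against 1814.6 ± 415.1 CPM (adjusted p = 0.324) and G6pc at 92.2 ± 33.4 against 151.5 ± 20.9 CPM (adjusted p = 0.0786). Of 18 insulin, FoxO and IGF binding genes, Irs1, the first docking protein of the insulin receptor, was at 1.03 ± 0.268 against 2.74 ± 0.742 CPM (log2 fold change -1.39, SE 0.37, adjusted p = 0.0322), and an antisense gene covers 30.9% of its exons. Trib3, a pseudokinase that binds AKT, was at 13.3 ± 2.46 against 8.2 ± 2.39 CPM (log2 fold change 0.68, SE 0.2, adjusted p = 0.0493), and its call was lost without any 1 of 14 of the 16 libraries. Irs2 had 5.51 ± 2.98 and 11.3 ± 3.79 CPM and did not pass (adjusted p = 0.193).

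Of 28 sterol genes 2 passed, as did 2 of 21 genes of fatty acid and triglyceride synthesis, against 6.15% called among all genes tested. Abcg5 and Abcg8, neighbours on chromosome 17, form together the pump that exports cholesterol into bile. Abcg5 was at 38, 33.1, 42.5 and 26.8 CPM under overlap and 73.6, 77.7, 64.8 and 70.2 CPM under intermittent hypoxia, a log2 fold change of -1.03 (SE 0.15, adjusted p = 0.00707). Abcg8 was at 36.4, 38.2, 45.5 and 32.7 CPM under overlap and 52.7, 50.7, 56 and 63.2 CPM under intermittent hypoxia, a log2 fold change of -0.55 (SE 0.13, adjusted p = 0.0269). Both were without overlap, their room air means were 29.4 ± 2.54 and 29.2 ± 1.03 CPM, and Abcg5 kept its call whichever single library was left out. They were the only calls among 28 sterol genes, whose median was -0.02, while Hmgcs1 of sterol synthesis had 137.5 ± 98.6 and 189.0 ± 55.3 CPM (adjusted p = 0.582). In fatty acid and triglyceride synthesis 2 of 21 fell, Mlxipl and Lpin2, a phosphatidate phosphatase at 158.1 ± 18.1 against 251.4 ± 44.6 CPM (log2 fold change -0.67, SE 0.18, adjusted p = 0.0345). Fatty acid synthase, Fasn, had 75.6, 386.5, 69.7 and 86.4 CPM under overlap and 88.3, 80.9, 128.6 and 93.2 CPM under intermittent hypoxia (adjusted p = 0.474), the high mean under overlap coming from replicate 2. Elovl3, a fatty acid elongase, was at 78.2 ± 23.8 against 36.8 ± 16.7 CPM (adjusted p = 0.093).

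Fatty acid oxidation and ketogenesis had 3 of 31 higher, 0 lower and a median of 0.10. Etfdh, which passes electrons from fatty acid oxidation to the respiratory chain, was at 83.1, 82.5, 87.1 and 93.5 CPM under overlap and 50.3, 39.5, 58.5 and 67.3 CPM under intermittent hypoxia (log2 fold change 0.68, SE 0.14, adjusted p = 0.0162). Acaa2, a mitochondrial thiolase, had a log2 fold change of 0.46 (SE 0.12, adjusted p = 0.0338). Cpt1a, the gate of fatty acid entry into mitochondria, had 116.8 ± 15.4 and 128.8 ± 22.7 CPM (adjusted p = 0.58). On lipid droplets 2 of 16 genes rose, the coat protein Plin3 and Abhd5, the activator of triglyceride lipase. They were at 30.6 ± 3.15 against 18.7 ± 4.12 CPM and 27.8 ± 8.63 against 17.1 ± 1.05 CPM, with log2 fold changes of 0.71 (SE 0.16, adjusted p = 0.0204) and 0.71 (SE 0.17, adjusted p = 0.0231) and no overlap. Cidec and Plin2, other droplet proteins, did not pass (adjusted p = 0.141 and 0.445), and the room air mean of Plin2 was 440.3 ± 94.8 CPM against 180.9 ± 36.8 and 155.6 ± 30.8 CPM under overlap and intermittent hypoxia. Without overlap replicate 4, 0 genes of the oxidation and droplet lists were called.

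Among the 38 cytochromes P450 of families 1 to 3 in the list, 3 rose and 2 fell, the latter being Cyp2b9 and Cyp2a4. The list does not hold every member of these families, and Cyp2j9, which also fell, is outside it. Cyp2d40 and Cyp2j6 rose, at 56 ± 3.64 against 28.4 ± 8.47 CPM and 84.5 ± 5.96 against 52.2 ± 8.49 CPM, as did Cyp2c67, at 284.6, 245.5, 311.6 and 410.2 CPM under overlap and 151.6, 199.3, 188.3 and 170.7 CPM under intermittent hypoxia. In that order their log2 fold changes were 0.98 (SE 0.2, adjusted p = 0.0165), 0.69 (SE 0.16, adjusted p = 0.0204) and 0.82 (SE 0.17, adjusted p = 0.0167), and 52.8% of the words of Cyp2c67 are shared. Cyp2c67 was also called with the ribosomal RNA share as a covariate, as were Slco1a1 and Cyp2b9. In bile acid synthesis and transport 3 of 24 rose and 2 fell, with a median of 0.19. Cyp8b1, the sterol hydroxylase that sets the share of cholic acid, was at 212.1, 416.7, 179.7 and 163.1 CPM under overlap and 69.2, 125.8, 115.6 and 117.6 CPM under intermittent hypoxia. Its log2 fold change was 1.18 (SE 0.28, adjusted p = 0.0259), and room air lay at 338.2 ± 27 CPM. Amacr, a racemase of bile acid side chain shortening, was at 96.1 ± 11.6 against 63.9 ± 6.22 CPM (log2 fold change 0.59, SE 0.12, adjusted p = 0.0162), and Slco1a1 was the other that rose. Slco1a4, a related uptake transporter, fell, at 57.9 ± 6.84 against 95.3 ± 28.4 CPM (log2 fold change -0.72, SE 0.18, adjusted p = 0.0273), as did the export pump Abcc2 (log2 fold change -0.60). Cyp7a1, the rate-limiting enzyme of bile acid synthesis, had 54.8, 152.3, 31.9 and 49.9 CPM under overlap and 63.3, 71.4, 74.9 and 54.3 CPM under intermittent hypoxia (adjusted p = 0.893).

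Complement and coagulation factors, secreted by hepatocytes, gave 3 of 32 higher and 0 lower, with a median of 0.14. F11, coagulation factor XI, was at 53.8, 44.4, 45.5 and 40.4 CPM under overlap and 24.2, 27.1, 22.3 and 23.9 CPM under intermittent hypoxia. All overlap libraries were above all intermittent ones, the log2 fold change was 0.92 (SE 0.15, adjusted p = 0.00838), and the call held with any single library left out. The room air mean of F11, 30.9 ± 7.84 CPM, lay nearer to intermittent hypoxia. F13b, the carrier subunit of factor XIII, was at 82.8 ± 5.35 against 52.6 ± 12.9 CPM (log2 fold change 0.65, SE 0.16, adjusted p = 0.0233), and C8b was the third.

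Outside these lists, the largest rise after that of Selenbp2, among genes whose groups were apart and whose mean reached 2 CPM, was that of Fabp5, a fatty acid-binding protein. It was at 70.3, 105.5, 25.6 and 188.0 CPM under overlap and 15.3, 7.03, 10.9 and 9.04 CPM under intermittent hypoxia, and at 92 ± 43.7 CPM in room air. Every overlap library was above every intermittent one, and the log2 fold change was 3.21 (SE 0.57, adjusted p = 0.0162). Serpina3k, an abundant plasma serpin, was at 12620.7, 7308.5, 8578.4 and 13826.1 CPM under overlap and 4939.4, 4975.1, 4589.4 and 3840.9 CPM under intermittent hypoxia (log2 fold change 1.21, SE 0.21, adjusted p = 0.00955). Gmppb, which makes GDP-mannose for glycosylation, Arfgap3, a coat regulator of the Golgi, and Slc22a28, an organic anion transporter relative, rose by log2 fold changes of 1.11, 1.02 and 1.44 (adjusted p = 0.0149, 0.0199 and 0.0191). An antisense gene covers 33.6% of the exons of Gmppb, and 53.9% of the words of Slc22a28 are shared with another gene. Also among the 15 largest rises were Adgrv1, Olfml1, Cmss1, Sntg2 and Mppe1, with log2 fold changes of 1.75, 1.22, 1.21, 1.13 and 1.08, at overlap means between 4.37 and 10.6 CPM. The call of Fabp5 was lost without intermittent replicate 2 and overlap replicate 4.

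Among the largest falls outside the lists, Lrit2 was at 1.5, 1.27, 2.62 and 1.15 CPM under overlap and 6.79, 6.35, 5.76 and 4.74 CPM under intermittent hypoxia, a log2 fold change of -1.92 (SE 0.27, adjusted p = 0.00707). Cyp2j9, an epoxygenase of arachidonic acid, was at 4.47, 2.58, 5.94 and 3.82 CPM under overlap and 11.4, 12.9, 15.8 and 9.7 CPM under intermittent hypoxia (log2 fold change -1.59, SE 0.24, adjusted p = 0.00707). Both kept their calls with any single library left out, and their room air means of 1.54 ± 0.294 and 4.39 ± 0.769 CPM were near those of overlap hypoxia. Nfat5, the factor that answers to osmotic stress, was at 4.77, 1.97, 3.32 and 2.51 CPM under overlap and 9.17, 10.7, 11.6 and 5.96 CPM under intermittent hypoxia (log2 fold change -1.57, SE 0.28, adjusted p = 0.0097). Plpp1, a lipid phosphatase of the cell surface, Sall1, a zinc finger repressor, and Fbf1, a protein of the ciliary base, had log2 fold changes of -1.56, -1.47 and -1.65 (adjusted p = 0.0191, 0.0132 and 0.0162). Adam11 and Dennd4b followed at -1.55 and -1.49 (adjusted p = 0.0162 and 0.0287). Srcap, a chromatin remodeller, was at 2.1 ± 2.42 against 10.8 ± 3.63 CPM (log2 fold change -2.25, SE 0.62, adjusted p = 0.0487), but 60.3% of its words occur in another gene and its call was lost without intermittent replicates 1, 2 and 3, overlap replicates 2, 3 and 4, room air replicates 1, 2, 3 and 4 and sustained replicates 1, 2, 3 and 4.

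Several systems of liver metabolism gave 0 calls in edgeR's test at this depth and spread. These were the urea cycle and amino acid breakdown (42 genes, median 0.10), acute phase proteins (24, -0.02), NRF2 and antioxidant enzymes (31, 0.13), cytosolic heat shock proteins (26, 0.19), apolipoproteins (24, 0.11), hepcidin and iron handling (22, -0.10) and immediate early genes (23, -0.14). Pericentral and periportal genes, which mark the ends of the liver lobule, also gave 0 of 24 and 0 of 21, with medians of -0.09 and 0.10. Collagens and matrix gave 0 of 28 and a median of -0.21. In the order given, 7, 2, 7, 5, 5, 3, 4, 3, 2 and 5 genes of these lists had an unadjusted p under 0.05 in edgeR. DESeq2 called 3, 0, 1, 2, 1, 2, 2, 2, 1 and 1 of them, and limma-voom called 0 in each list.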

How the data were processed

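RNA of 16 mouse liver libraries was sequenced after Trizol extraction and Illumina TruSeq preparation from total RNA, per the labels' protocols. The authors deposited expected counts per gene, which share out reads that map to several genes, and 49.3% of the nonzero values are not whole numbers. Bowtie 1.3.0, RSEM and the GRCm38 genome are named in the submitters' processing notes, without their order; the annotation release, read length and strand were not given in the sources used here.

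Expected counts were rounded, and symbols, lengths and coordinates were taken from GENCODE M21 of the same build by gene identifier, which named 55227 of 55487 genes. In no library did the 260 others hold more than 0.0313% of counts. Genes were filtered with filterByExpr and scaled by TMM in edgeR 4.0.16 (R 4.3.3). Quasi-likelihood models with robust dispersions and 1 coefficient per group were fitted to all 16 libraries, which thus share an estimate of the spread, and the contrast overlap minus intermittent was tested with Benjamini-Hochberg adjustment over 14553 genes. In data simulated for this contrast over 14553 genes the test recovered 19.4% of genes changed 1.5-fold, 65.7% of those changed 2-fold and 93.9% of those changed 4-fold, with 10 false calls. Apart from the changed genes, all groups in that simulation shared each gene's mean and dispersion, and genes were drawn independently. It held neither the shift in ribosomal RNA share nor the wider spread within intermittent (0.346) and overlap hypoxia (0.3). Its rates may therefore be optimistic for the real contrast.

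The comparison, the 45 gene lists and the 12 marker lists were chosen with earlier results of these data known, so a list's count and median are descriptions. The genes selected for description were the 15 largest rises and falls among called genes whose groups were apart and whose mean reached 2 CPM, up to 4 members with the lowest p from each of 31 lists and 22 genes of known roles. Some called members of a list are named besides, and the results of 2 selected genes are not reported here. Shared words are the share of a gene's 50-base words found in another gene's transcripts.

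Library measures were compared by exact two-sided permutation tests and adjusted over 6 measures. Shares of a library have 95% Wilson intervals of at most 0.0294 percentage points to either side, which cover counting error only, since reads carry no molecular identifiers. The 12 pairs of replicates within a group differed by a chi-square of 59.7 to 473.4 per degree of freedom, so none was a duplicate. Nothing says that libraries come from separate animals beyond a number of their own in the descriptions, so p-values measure the spread between libraries. Alternatives were other scalings, filters, dispersion estimates, covariates and libraries, DESeq2 1.42.0 and limma 3.58.1 with voom. Promoter windows are from RefSeq (GRCm38.p6), and 79 of the 96 called genes among those selected had a window that was searched.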

Additional observations from a re-analysis of the deposited data

Results flagged for a closer look

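In 260 groups of 4 libraries, for the selected genes and library measures, 17 had a library far from its 3 neighbours, with a gap over 0.829 of the group's range, which chance gives in about 1 in 20 groups. Under intermittent hypoxia, replicate 4 was highest for Cyp2b9 at 63.6 CPM (next 3.93), Psma6 at 126.1 CPM (next 80.1) and Cul2 at 15.6 CPM (next 12.3), and lowest for Srrm2 at 31.0 CPM (next 48.1). Replicate 1 of that group was highest for Cyp2a4 at 43.4 CPM (next 4.72) and Hspa5 at 296.2 CPM (next 220.3), and lowest for Bmp2 at 8.16 CPM (next 10) and Lpin2 at 184.6 CPM (next 269.8). Replicate 3 of that group was lowest for Olfml1 at 1.44 CPM (next 5.19).

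Under overlap hypoxia, replicate 2 was highest for Fasn at 386.5 CPM (next 86.4), and lowest for Mup3 at 9978.8 CPM (next 12319.2) and for the share of the 50 most abundant genes at 46.5% (next 56.0%). Replicate 3 was lowest for Psmc2 at 54.2 CPM (next 80.2) and Plin2 at 125.8 CPM (next 197.0). Replicate 4 was highest for Rplp0 at 577.1 CPM (next 473.9) and Plin3 at 35.3 CPM (next 29.5), and replicate 1 was highest for Mup9 at 4542.5 CPM (next 2047.7).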

How the results depend on the processing

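Against 895 calls with all libraries, the count was 1556 with DESeq2, 446 with limma-voom, 0 with the 8 compared libraries alone, 4 with the ribosomal RNA share and 0 with the mitochondrial share as covariate. On the 8 compared libraries limma-voom called 175, and 354 were called without intermittent replicate 3, which has the highest ribosomal RNA share, and overlap replicate 3, which has the lowest total. These last alternatives and DESeq2 on the 8 libraries were chosen after seeing the data. Leaving out 1 library at a time gave 16 to 1406 calls. The cause was not tested. The count stayed within 1.5 times of 895 under the other scalings, filters, dispersion estimate and the length and GC offset (769 to 910). All 96 called genes among those selected kept their direction in every alternative that gave them a value.

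The replicate block gave 1216 calls. Overlap and intermittent libraries with the same number had deviations correlated at -0.083, -0.103, 0.063 and 0.066. Such correlations cannot show whether libraries of the same number share a batch, and the labels name none. The libraries were treated as unpaired.

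Leaving out 1 library moved the difference in ribosomal RNA share between -18.0 and -12.5 points and that in major urinary proteins between 7.62 and 10.8 points (exact permutation p of 0.0286 or 0.0571). It moved the share of the 50 most abundant genes between -11.3 and -6.30 points, the library total between -11832657.8 and 5099753.2 counts and genes detected between -1310.9 and 645.7.

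Among genes that did not pass, direction turned for mt-Co1 (log2 fold change 0.10 and 0.02), Fasn (-0.26 and -0.30) and Cyp7a1 (-0.54 and -0.56) with the ribosomal RNA and mitochondrial shares as covariates. It turned for Dbp (-0.02) and Malat1 (0.11) with the ribosomal RNA share, for Plin2 (-0.05) with the mitochondrial share, and with limma-voom for Dbp (0.00 from below) and Cyp7a1 (-0.29, or -0.32 on 8 libraries). With 1 library left out Dbp ranged from -0.04 to 0.16, Fasn from -0.33 to 0.91 and Cyp7a1 from -0.52 to 0.38. The depth and spread limit what could be called: 1.5-fold changes, simulated with a spread shared by all groups, were recovered in 19.4% of genes.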

Other observations

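Lists not described above held 7 further called genes, named after their values were seen. Gsta2, a glutathione transferase, was at 35.2, 39.7, 41.4 and 38.3 CPM under overlap and at 68.2, 60.2, 62.2 and 66.9 CPM under intermittent hypoxia, with a log2 fold change of -0.74 (SE 0.18, adjusted p = 0.0277), and was the only call of 21 genes of its family. Among 25 glucuronosyltransferases and sulfotransferases Ugt1a6b and Ugt2b35 rose, by log2 fold changes of 0.74 and 0.55 (adjusted p = 0.0319 and 0.0380).

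Of 28 interferon-stimulated genes 1 rose and 1 fell, with a median of 0.35, against 6.15% called among all genes tested. Stat2, a factor of the type I interferon signal, was at 21.2, 16.9, 21.3 and 20.2 CPM under overlap and at 32.1, 44.0, 43.8 and 28.0 CPM under intermittent hypoxia (log2 fold change -0.89, adjusted p = 0.0126). Ifih1, the RNA sensor MDA5, was at 15.8, 17.4, 16.3 and 14.1 CPM against 11.3, 10.2, 7.12 and 13.2 CPM (log2 fold change 0.60, adjusted p = 0.0295). Both had groups apart, in opposite directions, and the other 26 did not pass. Mdm4, an inhibitor of p53, fell by 0.98 on the log2 scale (adjusted p = 0.0231), and Ccne1, cyclin E1, rose by 1.73 at levels of 0.902 to 2.04 against 0.262 to 0.715 CPM (adjusted p = 0.0162).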
